A study of Canis lupus familiaris with 12 samples.

Results

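The genes described here are 117 gene identifiers whose mRNA was lower without glucose in each of 2 canine tumour lines, named HU-HSA-2 and, from another dog, HU-HSA-3, of 30951 identifiers listed. They were selected on the TPM values themselves. TPM is a transcript level scaled by the length of the gene and by the total of the library. In each line the change was the log2 ratio of mean TPM at 0 mM to mean TPM at 25 mM glucose, with 1 added to each mean. An identifier was kept where its mean TPM was at least 2 in each line, its change was -0.3 or lower in both lines, and all 3 libraries at 0 mM lay below all 3 at 25 mM in each line. Genes with a primer pair in the study were set aside, and 0 of those 19 identifiers met the limits. The set made up 1.18% of the 9916 identifiers that reached the TPM minimum in both lines. The direction of the glucose change in these genes therefore follows from how they were chosen, and nothing is read from calls made on that contrast.

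Both are cell lines of canine hemangiosarcoma, each established from the splenic tumour of a single dog. The cells were cultured in DMEM with fetal bovine serum for 48 h with 0 or 25 mM glucose, and mRNA was sequenced from 3 libraries of each of the 4 groups. A group here is thus a line at a glucose concentration, no other agent or allele separates the groups, and the lines differ by donor. The study's methods state that each condition was cultured in triplicate, so p-values measure the spread between cultures of a line. Whether the cultures were grown on separate days is not given in the sources used here.

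Endothelial cells line the blood vessels, and hemangiosarcoma is the cancer that arises from them, in dogs often in the spleen. Glucose feeds glycolysis, from which cells draw ATP and the carbon for nucleotides, lipids and the sugar chains of glycoproteins. Cells deprived of it are known to slow growth-related synthesis and to switch on stress programmes such as the ATF4 response, which restores amino acid supply. The tables name genes by Ensembl identifier alone, and 0 identifiers matched the reference gene table, so the roles, positions and sequences of the 117 genes are not given.

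The lines had endothelial markers at different levels. PECAM1, the adhesion protein CD31 of endothelial junctions (ENSCAFG00000011740), had 1116 ± 16.6 TPM in HU-HSA-2 at 25 mM, while HU-HSA-3 had 432 ± 12.8 TPM (SD, n = 3). KDR, the VEGF receptor (ENSCAFG00000002079), had 74.3 ± 2.90 TPM and 43.6 ± 2.82 TPM at 25 mM. VWF, the clotting factor stored by endothelium (ENSCAFG00000015228), stayed below 1 TPM in all 12 libraries. The changes of PECAM1 without glucose were -0.12 for HU-HSA-2 and -0.19 for HU-HSA-3, and those of KDR were -0.24 and -0.27, all short of the limit of the selection. Library totals of rounded expected counts lay between 10406166 and 13405159.

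How many genes were lowered in both lines depended on the scale. By the same limits, HU-HSA-2 had 529 lowered identifiers (5.33% of those past the TPM minimum) and HU-HSA-3 had 952 (9.6%), so the shared 117 were 22.1% of the list of HU-HSA-2 and 12.3% of that of HU-HSA-3. By mirrored limits 76 were raised in both lines, 24 were lowered in HU-HSA-2 but raised in the other line, and 34 went the other way. The median change of all identifiers past the TPM minimum was itself below 0 in TPM, at -0.03 for HU-HSA-2 and -0.08 for HU-HSA-3. With counts scaled to the library total with TMM factors (CPM) in place of TPM, where the same medians were -0.01 and 0.00, 73 identifiers met the limits, of which 71 were among the 117. Subtracting the median change in each line left 64 of the 117. All 117 remained below 0 in both lines in CPM, where their median changes were -0.38 and -0.37. CPM was taken from the same libraries as the selection, so this sign was largely fixed by the choice of genes. Nothing is read from it. In bulk RNA of a culture, fewer cells of a kind and less RNA per cell cannot be told apart.

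**Figure D1:**
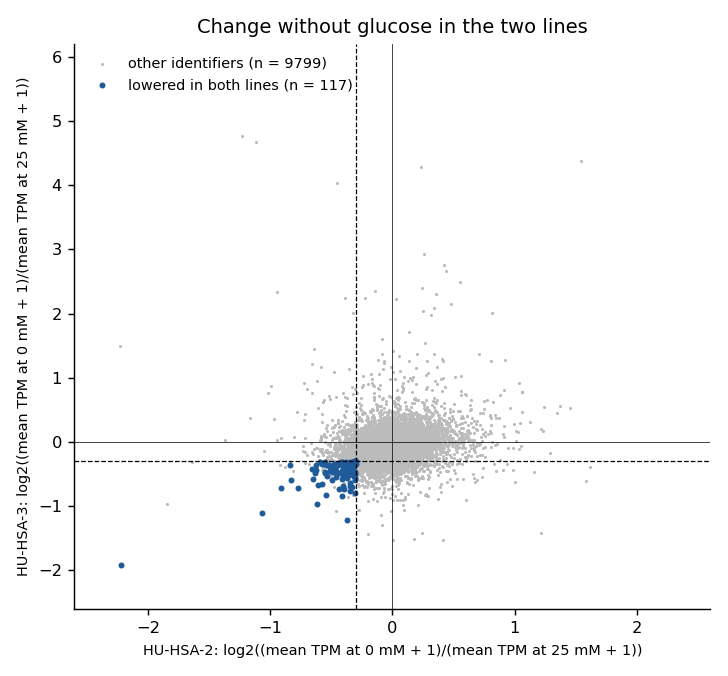
Change in mean TPM without glucose (log2, 1 added to each mean) with HU-HSA-2 on the horizontal axis and HU-HSA-3 on the vertical axis; each point is an identifier, blue for the 117 lowered in both lines and grey for the 9799 others past the TPM minimum, 9 of which lie outside the axes. Dashed lines mark the limit of -0.3, and most blue points crowd the corner near it, with 1 point far below the rest near -2 in both lines.

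Most of the falls were small. The median change of the 117 genes was -0.39 for HU-HSA-2 (interquartile range -0.49 to -0.35), beside -0.44 for HU-HSA-3 (-0.52 to -0.35), which left 76.1% and 73.8% of the level at 25 mM, with 1 TPM added to each. In HU-HSA-2, 91 genes had a change above -0.5, 24 lay between -1 and -0.5, and 2 were at -1 or lower. In HU-HSA-3 these counts were 83, 31 and 3. The change was -0.5 or lower in both lines for 11 genes, in HU-HSA-2 alone for 15, in HU-HSA-3 alone for 23 and in neither for 68.

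ENSCAFG00000011405 had the largest fall of the 117. In HU-HSA-2 its libraries at 25 mM held 42.2, 38.2 and 40.6 TPM, and those at 0 mM held 8.24, 6.07 and 9.25 TPM. In HU-HSA-3 they held 5.03, 5.12 and 3.65 TPM at 25 mM and 0.12, 0.26 and 1.05 TPM at 0 mM. The groups were far apart within each line, and even at 0 mM HU-HSA-2 stood above HU-HSA-3 at 25 mM. The changes were -2.22 and -1.92, a ratio of mean TPM of 5.13 for HU-HSA-2 and 9.65 for HU-HSA-3. The added 1 TPM makes the second change smaller than its ratio, and that ratio rests on 1, 3 and 13 counts in the libraries at 0 mM against 39 to 58 at 25 mM.

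ENSCAFG00000049840, named after its values were seen, was the other gene at -1 or lower in both lines. It had 365, 405 and 410 TPM at 25 mM and 191, 196 and 175 TPM at 0 mM in HU-HSA-2. For HU-HSA-3 it had 69.6, 69.1 and 60.2 TPM at 25 mM and 26.5, 31.6 and 32.1 TPM at 0 mM. The level without glucose was 47.6% of the level with glucose for HU-HSA-2 and 45.3% for HU-HSA-3, close to each other although the lines differed in level.

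ENSCAFG00000007945 was the most abundant of the 117 genes over the 12 libraries. Its libraries held 892, 951 and 956 TPM at 25 mM and 686, 728 and 686 TPM at 0 mM in HU-HSA-2. For HU-HSA-3 they held 159, 172 and 187 TPM at 25 mM and 99.96, 120.3 and 123.5 TPM at 0 mM. Its changes of -0.41 and -0.58 were close to the middle of the set for HU-HSA-2 and below the lower quartile for HU-HSA-3.

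**Figure D2:**
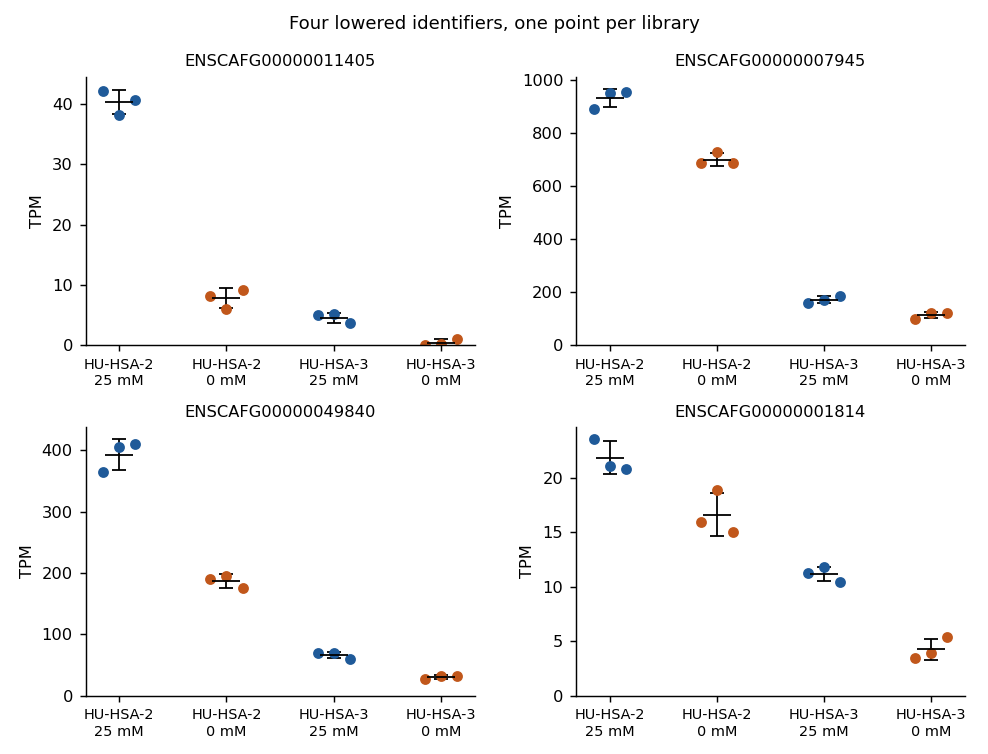
TPM in each library (points; blue for 25 mM, orange for 0 mM glucose) with the group mean and SD (n = 3) for ENSCAFG00000011405, ENSCAFG00000007945, ENSCAFG00000049840 and ENSCAFG00000001814. In each panel the points at 0 mM lie below those at 25 mM of the same line, as the selection required, and HU-HSA-2 lies above HU-HSA-3 at the same glucose concentration.

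The falls in the lines were set side by side as a description. Both changes had to reach -0.3 and most lay near it, so how close they are is shaped by the selection. In TPM the difference between the changes, HU-HSA-3 minus HU-HSA-2, ran from -0.84 to 0.48 with a median of -0.02, and it was within 0.3 in either direction for 107 genes. Which line had the larger fall depended on the scale, since the median difference of the 117 genes was 0.03 in the edgeR fit of counts.

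In a fit of all 12 libraries with edgeR, the response to glucose differed between the lines in 2 of the 117 genes, while 4.73% of all genes tested did so. The selection used the same contrasts, so nothing is read from this count, which was 1 to 3 when a library was left out. ENSCAFG00000001814 was called in all 12 such fits, and ENSCAFG00000016055 lost its call in 8 of them. Both genes were named after their values were seen. ENSCAFG00000001814 had 23.6, 21.1 and 20.9 TPM at 25 mM and 15.97, 18.8 and 15.1 TPM at 0 mM in HU-HSA-2. For HU-HSA-3 it went from 11.3, 11.8 and 10.5 TPM to 3.48, 3.91 and 5.35 TPM, so that 38.0% of its level was left, against 76.1% in HU-HSA-2. ENSCAFG00000016055 went the other way, with 54.9% left for HU-HSA-2 and 74.2% for HU-HSA-3. Its libraries held 38.0, 39.9 and 41.2 TPM at 25 mM and 22.7, 21.9 and 20.8 TPM at 0 mM in HU-HSA-2. For HU-HSA-3 they held 5.23, 6.08 and 5.59 TPM at 25 mM and 3.66, 4.27 and 4.61 TPM at 0 mM.

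Summed over the 117 genes, the level in HU-HSA-2 was 7490 ± 269 TPM at 25 mM and 5412 ± 182 TPM at 0 mM. In HU-HSA-3 it was 4658 ± 129 TPM and 3282 ± 273 TPM (SD, n = 3 each). Of the 12 libraries, replicate 1 of HU-HSA-3 at 0 mM stood lowest, with 2968 TPM against 3417 and 3461 TPM in the other libraries of its group. It was the lowest of its group in 90 of the 117 genes (76.9%) and in 62.2% of all identifiers past the TPM minimum. The median log2 ratio of the 117 genes to their mean at 25 mM was -0.64 in this library and -0.39 and -0.33 in replicates 2 and 3, while in HU-HSA-2 it was -0.39, -0.37 and -0.44. The other identifiers were shifted in the same library too, with a median ratio of -0.18 over all identifiers past the minimum. Without it the median change of the 117 genes in HU-HSA-3 was -0.36 and 83 of them still reached -0.3, and the selection run without it gave 92 identifiers. Leaving out replicate 3 of the same group gave 159.

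**Figure D3:**
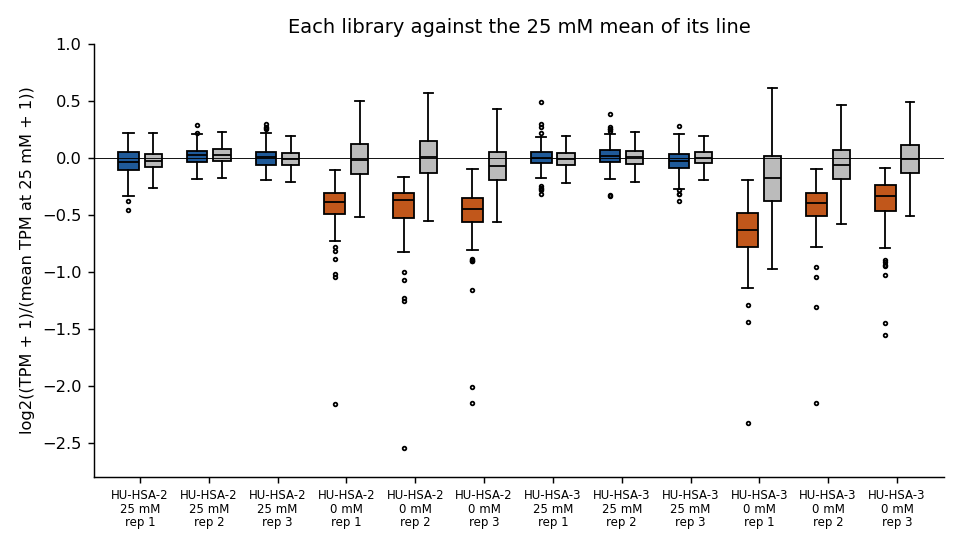
Log2 ratio of TPM in each library to the mean TPM at 25 mM of its line, with 1 added to both (boxes show the median and quartiles, whiskers reach 1.5 times the interquartile range). Coloured boxes are the 117 genes (blue 25 mM, orange 0 mM, circles for genes beyond the whiskers) and grey boxes the other identifiers past the TPM minimum, whose outlying points are not drawn. Replicate 1 of HU-HSA-3 at 0 mM has the lowest orange box, with a median of -0.64, and its grey box is also the lowest.

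Calls made on the contrast that chose the genes are largely fixed by that choice, and the following counts test nothing and are given only to show how the calls depend on single libraries. In counts, edgeR's quasi-likelihood test put 92 of the 117 genes past an adjusted p of 0.05 as lower for HU-HSA-2, where 5.7% of all genes tested were, and 37 for HU-HSA-3, where 2.04% were. The count in HU-HSA-3 was 71 without replicate 1 at 0 mM and between 15 and 27 when any of the other 5 libraries was left out. Replicates at 0 mM in HU-HSA-3 varied more than the rest, with a median coefficient of variation over the 117 genes of 13.9% against 6.79% at 25 mM, 8.17% at 0 mM in HU-HSA-2 and 6.61% at 25 mM there. Over all identifiers past the TPM minimum it was also highest in that group, at 10.7% against 5.83%, 7.56% and 6.16%.

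The difference in level between the lines, averaged over both glucose concentrations, was not itself a limit of the selection. It was tested in the same 12 libraries. The level in each line entered the selection through the TPM minimum and the 1 TPM added, so the test is not independent of it. More of the 117 genes were lower in HU-HSA-3 than higher. Of the 117, 65 (55.6%) were lower in HU-HSA-3 and 36 (30.8%) were higher by edgeR's quasi-likelihood test with an adjusted p under 0.05. Among all 12233 genes tested, 41.7% were lower and 39.8% higher. Among the 9869 tested genes past the same TPM minimum, 36.2% were lower and 44.5% higher. The median log2 fold change of the 117 genes, HU-HSA-3 against HU-HSA-2, was -0.36 (interquartile range -1.27 to 0.33), against 0.08 (-0.42 to 0.52) for the genes past the minimum. It was below -1 in 42 of the 117 genes (35.9%) and in 9.65% of the genes past the minimum, and above 1 in 10 genes (8.55%) and in 8.51%. Each line comes from a different dog, so line and donor cannot be told apart, and these shares compare lists without a test of the list.

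ENSCAFG00000011405 was lower in HU-HSA-3 by a log2 fold change of -3.36 (SE 0.20, adjusted p = 6.84e-11) in edgeR's quasi-likelihood test, adjusted over all genes tested. In the same test ENSCAFG00000007945 was at -2.38 (SE 0.05, adjusted p = 5.16e-17) and ENSCAFG00000049840 at -2.37 (SE 0.05, adjusted p = 1.20e-16). For each of these genes all 6 libraries of HU-HSA-3 lay below all 6 of HU-HSA-2 in TPM. The extremes of the set were named after their values were seen. ENSCAFG00000017182 was lowest in HU-HSA-3 relative to HU-HSA-2, at -3.57 (SE 0.07, edgeR adjusted p = 3.20e-17), with 165, 188 and 181 TPM at 25 mM in HU-HSA-2 against 11.4, 14.4 and 12.8 TPM. ENSCAFG00000011087 was at the other end, 2.21 higher in HU-HSA-3 (SE 0.06, edgeR adjusted p = 3.58e-15), with 38.8, 49.3 and 39.2 TPM at 25 mM in HU-HSA-2 against 169.5, 169.3 and 159 TPM. Both lost a similar share without glucose in HU-HSA-3, where 71.1% and 71.0% of the level was left, and in HU-HSA-2 70.8% and 63.7% was left.

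**Figure D4:**
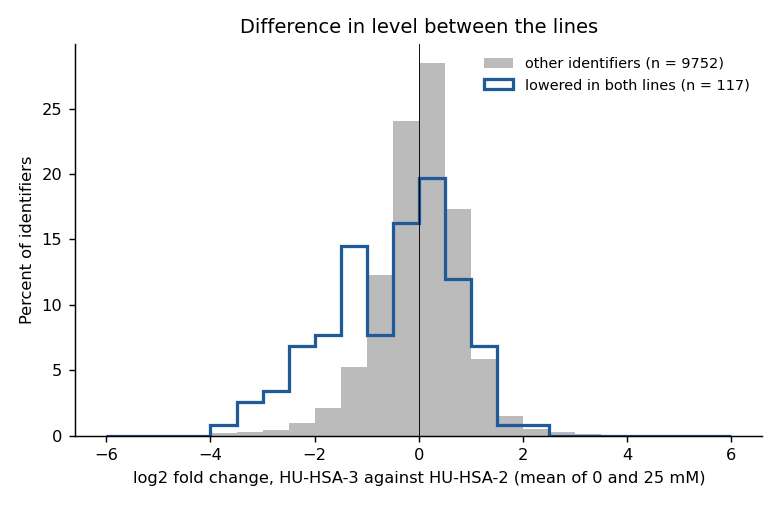
Log2 fold change of HU-HSA-3 against HU-HSA-2, averaged over 0 and 25 mM glucose, as the percent of identifiers in bins of 0.5; the blue outline is the 117 genes lowered without glucose in both lines and the grey bars are the 9752 other tested identifiers past the TPM minimum (values beyond 6 in either direction are drawn at 6). A larger share of the blue outline lies below -1, with 35.9% of its genes there against 9.65% of all tested genes past the minimum.

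At 25 mM the median level of the 117 genes was 30.4 TPM for HU-HSA-2 (3.76 to 933) and 18.9 TPM for HU-HSA-3 (2.52 to 253), beside medians of 28.5 and 25.7 TPM for all identifiers past the minimum. TPM was deposited in a separate table for each line, and in these values 82 of the 117 genes (70.1%) were higher in HU-HSA-2 at 25 mM, as were 55.2% of all identifiers past the minimum. In HU-HSA-2, 20 genes exceeded 100 TPM, 84 lay between 10 and 100 TPM and 13 were below 10 TPM. In HU-HSA-3 these counts were 13, 77 and 27.

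Gene length was estimated relative to the other genes by dividing expected counts by TPM. The 9883 identifiers past the minimum with a length estimate were split into 4 length classes of equal size, and the classes from shortest to longest held 24, 31, 26 and 36 of the 117 genes, or 0.971%, 1.25%, 1.05% and 1.46%. These shares lay around the 1.18% of all identifiers past the minimum without a steady rise, and their differences were not tested. The median change of all identifiers in HU-HSA-3 moved from -0.03 in the shortest class to -0.13 in the longest, while in HU-HSA-2 it stayed between -0.04 and -0.02. With a smooth trend on length removed from each library, 68 identifiers met the limits, all of them among the 117. Removing the trend also brought the median change of all identifiers to -0.01 and 0.00, and subtracting the median TPM change of each line alone gave 64, so the 68 is no measure of length. The part of length in the result was not tested. ENSCAFG00000035325, singled out after its values were seen, was the shortest of the set and had only 27 to 97 counts per library. Its TPM at 25 mM was 27.9, 40.2 and 47.8 for HU-HSA-2, where at 0 mM it was 25.3, 27.1 and 7.92. For HU-HSA-3 it was 169.6, 95.5 and 96.3 at 25 mM, then 86.8, 90.6 and 40.4 at 0 mM. Replicates of this gene spread widely, and the groups were separated by a narrow gap in TPM alone. The expected counts of ENSCAFG00000035325 overlapped between 0 and 25 mM in each line, and its log2 fold changes in edgeR's quasi-likelihood test, -0.50 (SE 0.25, adjusted p = 0.21) and -0.30 (SE 0.44, adjusted p = 0.73), did not pass the threshold.

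**Figure D5:**
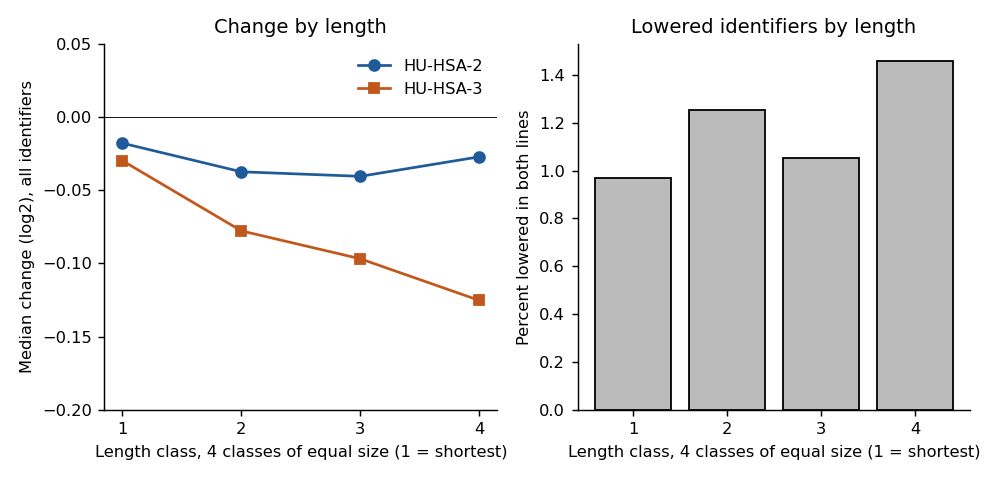
Left, median change without glucose (log2 of TPM, 1 added to each mean) of all identifiers past the TPM minimum in 4 classes by relative gene length, circles for HU-HSA-2 and squares for HU-HSA-3. Right, percent of the identifiers in each class that were lowered in both lines, which was 0.971%, 1.25%, 1.05% and 1.46% from the shortest class to the longest.

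Expected counts that are not whole come from reads that RSEM divides between genes. Only 2 of the 117 genes (1.71%) had such a value, against 5.81% of the identifiers past the minimum. They were ENSCAFG00000016434, in all 12 libraries, and ENSCAFG00000002412, in 6. Their levels are uncertain to the extent that reads were shared. The first had 11.02, 12.3 and 11.2 TPM at 25 mM and 9.48, 8.40 and 6.44 TPM at 0 mM in HU-HSA-2. For HU-HSA-3 it had 16.7, 18.0 and 14.4 TPM at 25 mM and 13.8, 10.7 and 8.35 TPM at 0 mM.

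The edge of the selection was crowded. Judged by the smaller fall of each identifier in the lines, 21 of the 117 lay within 0.02 inside the limit and 29 others within 0.02 outside it, with the nearest at -0.3006 and -0.2984. A further 57 identifiers met the limits on level and change and failed only because libraries of the groups overlapped, and 14 met all but the TPM minimum. The lowest mean TPM among the 117 in a line was 2.02, and the highest among those 14 was 1.88. The gap between the groups, taken as the lowest library at 25 mM over the highest at 0 mM, had a median ratio of 1.15 in each line and was under 1.1 for 23 genes of HU-HSA-2 and 36 of HU-HSA-3.

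The study paired 7 stress-response genes with identifiers, and none met the limits of the selection. Their changes are given for HU-HSA-2 and then for HU-HSA-3, without a test. ASNS, asparagine synthetase (ENSCAFG00000002222), changed by -0.70 and 0.82, and CHAC1, a glutathione-degrading enzyme (ENSCAFG00000009414), by -0.45 and 4.03. ATF4, the transcription factor of the amino acid response (ENSCAFG00000001324), changed by -0.24 and 1.03, and MTHFD2, a mitochondrial folate enzyme (ENSCAFG00000008716), by -0.11 and 0.82. In these 4 genes the libraries at 0 mM lay below those at 25 mM in HU-HSA-2. SESN2, a regulator of growth signalling (ENSCAFG00000011842), changed by -0.22 and 2.25, with overlapping libraries in HU-HSA-2. DDIT3, the stress factor CHOP (ENSCAFG00000030112), changed by 0.42 and 2.76, and SLC7A11, a cystine transporter (ENSCAFG00000003749), by 0.26 and 2.92, upward in both lines. The change at 48 h was thus above 0 in HU-HSA-3 for all 7 genes and below 0 in HU-HSA-2 for 5 of them. All libraries were taken at that time, so an earlier rise cannot be seen in them. From RT-qPCR over time, the paper reports that stress-response genes increased in HU-HSA-2 too, with a peak soon after glucose was removed.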

How the data were processed

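The libraries are mRNA-seq of 2 lines at 0 and 25 mM glucose. The authors used STAR to map reads against CanFam3.1 and RSEM to quantify genes. The versions, annotation and strand setting are not given in the sources used here, and edgeR 3.42.0 is named in the submitters' processing notes. The authors deposited unnormalized expected counts and TPM values, in a table per line and unit. Totals of 10406166 to 13405159 counts limit the precision of low genes.

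The 117 genes were found from TPM by the limits given above. For tests, the counts were rounded to whole numbers and fitted with edgeR 4.0.16 in R 4.3.3 (filterByExpr, TMM, quasi-likelihood test, Benjamini-Hochberg adjustment over all genes tested, threshold 0.05), 1 mean per group, with 12 libraries for the line difference and 6 for each line. The code was tested on simulated data. Alternatives were other normalizations and filters, DESeq2 1.42.0, limma 3.58.1 on log2 TPM, the replicate number as a block and each library left out. Members and lists were chosen with earlier results of these data known. Planned gene lists were not used, since 0 identifiers matched the reference table (UU_Cfam_GSD_1.0). The genes named are those with the lowest mean change and the highest mean TPM, the genes the study pairs with identifiers, and others said to be named after their values were seen. Relative length used values of at least 10 counts. A count was called whole within 0.005.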

Additional observations from a re-analysis of the deposited data

Results flagged for a closer look

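The response to glucose differed between the lines in 2 of the 117 genes by edgeR's quasi-likelihood test of the difference itself (adjusted p under 0.05). In ENSCAFG00000001814 the log2 change in HU-HSA-3 was 0.97 further down than in HU-HSA-2 (difference -0.97, SE 0.15, edgeR adjusted p = 0.00079). In ENSCAFG00000016055 it was smaller in HU-HSA-3 (difference 0.49, SE 0.12, edgeR adjusted p = 0.024). Both genes were lower at 0 mM in all libraries of both lines, which the selection required, and the difference is built from the contrasts used to choose them. When each of the 12 libraries was left out in turn, ENSCAFG00000001814 was called in all 12 fits (edgeR adjusted p from 5.81e-05 to 0.0039). ENSCAFG00000016055 lost its call in 8 of the 12 (edgeR adjusted p from 0.0089 to 0.085, difference 0.43 to 0.55).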

How the results depend on the processing

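The count of 117 genes was 11 with a limit of -0.5, 73 with TMM-normalized CPM, 64 with the median change subtracted and 68 with the length trend removed (the last 2 were chosen after seeing the data), and 92 to 159 when a library was left out. Other TPM minimums and a pseudocount of 0.1 gave 98 to 136. For the glucose change, limma on log2(TPM + 1) and log2(TPM + 0.1) called 37 and 27 genes of HU-HSA-2 and 23 and 17 of HU-HSA-3. All 12 libraries in a single fit called 64 in HU-HSA-3. Leaving out a library gave 67 to 92 for HU-HSA-2 and 15 to 71 for HU-HSA-3, and 1 to 3 genes whose response differed between the lines. The share of all genes called was not counted in these fits, so nothing about the 117 genes is read from these counts. The response count was 1 without replicate 2 or 3 of HU-HSA-2 at 25 mM or at 0 mM, replicate 1 of HU-HSA-3 at 25 mM, or replicate 2 or 3 of HU-HSA-3 at 0 mM. ENSCAFG00000016055 lost its call in these 7 fits and without replicate 3 of HU-HSA-3 at 25 mM, where the count remained 2. The causes were not tested. The count of genes that differed between the lines stayed between 95 and 103 under all alternatives run, with 63 to 67 lower in HU-HSA-3. Such differences were common, since 41.7% of all genes tested were lower in HU-HSA-3 and 39.8% higher in the main fit. Nothing particular to the 117 genes is read from the total. ENSCAFG00000011405 has no value with at least 10 counts in every library.

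Whether same-numbered libraries of a line were paired is not given in the sources used here. Deviations of same-numbered libraries at 0 and 25 mM correlated at -0.01 to 0.07 for HU-HSA-2 and -0.05 to 0.11 for HU-HSA-3. Not every library correlated best with its own number. With 3 libraries in a group, such correlations cannot show whether the cultures were paired. With the replicate block, 101 genes differed between the lines, 90 were lower without glucose for HU-HSA-2 and 45 for HU-HSA-3, and 2 differed in response. The share of all genes called with the block was not counted.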
